A study of Mus musculus with 45 samples.

Results

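Zfp352, Tcstv1 and Tcstv3 are transcribed in the mouse embryo at the 2-cell stage and are near silent in cultured mouse embryonic stem cells (mESCs). They were chosen by name, as genes of the 2-cell stage outside the Zscan4 family, and are 3 of the 55401 genes in the deposited RNA-seq tables. The series holds 45 RNA-seq libraries in 15 groups of 3. In 3 experiments the cells carried EHMT2-dTAG-mcherry, a degron allele on a BL6/129 background through which the compound dTAG removes the EHMT2 protein, and DMSO was the solvent control. The time course (12 libraries) compared DMSO with dTAG at 24 h and at 7 d in the clones E2-17, E2-20 and E2-K71. The washout (9 libraries), in the same clones, compared DMSO for 15 d, dTAG for 15 d and a recovery group that had dTAG for 7 d and then DMSO for 8 d. The sorted experiment (12 libraries) used the line EHMT2-dTAG-mcherry-mervl-gfp after 72 h in DMSO or dTAG, and separated GFP-positive cells, called 2-cell-like cells (2CLCs), from GFP-negative mESCs. The reporter is driven by a MERVL sequence. All degron cells, DMSO controls included, carried the tagged Ehmt2 allele. The last experiment (12 libraries) crossed genotype, the J1 line WTJ1 against DPPA4KO cells made with CRISPR/Cas9, with 48 h of DMSO or of UNC0638, an inhibitor of the EHMT2 and EHMT1 enzymes.

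Zfp352 encodes a C2H2 zinc finger protein. Tcstv1 and Tcstv3 belong to a small gene family found in mouse 2-cell embryos and have been linked to telomere maintenance in mESCs. A small and changing share of the cells in an mESC culture resembles the 2-cell embryo and transcribes these genes together with the Zscan4 genes, the Usp17l deubiquitinase genes and the endogenous retrovirus MERVL. The transcription factor DUX (gene symbol Duxf3 in these tables) and, upstream of it, the DNA-binding proteins DPPA2 and DPPA4 are known activators of that state. EHMT2, also named G9a, is a methyltransferase that places H3K9me2, a mark of repressed chromatin. In bulk libraries, more cells in the 2-cell-like state cannot be told apart from more RNA per cell.

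Zfp352 (ENSMUSG00000070902.5) lies on the plus strand at chr4:90218820-90225702 (mm10, GENCODE vM21), and its coding sequence of 1653 bases, chr4:90223625-90225277, is in exon 2 of 2. Tcstv1 (ENSMUSG00000096284.2) lies on the minus strand at chr13:119893388-119894785, with a coding sequence of 513 bases in exon 2 of 2. Tcstv3 (ENSMUSG00000095821.2) lies on the plus strand at chr13:120316878-120318178, 422092 bases from Tcstv1 on the opposite strand, with a coding sequence of 507 bases, also in exon 2 of 2. In a global alignment the Tcstv coding sequences were identical at 480 of 507 aligned bases (94.7%), and 6 further bases were present in Tcstv1 alone. Their first 240 coding bases are shown as an example of where the genes agree and differ, with capitals at the bases that differ between them. The Tcstv1 stretch is chr13:119893855-119894094 on the minus strand and the Tcstv3 stretch is chr13:120317567-120317806 on the plus strand, both read in the direction of transcription.
Tcstv1: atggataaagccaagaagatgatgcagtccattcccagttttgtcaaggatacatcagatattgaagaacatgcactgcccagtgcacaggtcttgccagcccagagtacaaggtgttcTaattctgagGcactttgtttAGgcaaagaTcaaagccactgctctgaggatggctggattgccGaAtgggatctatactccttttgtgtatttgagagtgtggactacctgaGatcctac
Tcstv3: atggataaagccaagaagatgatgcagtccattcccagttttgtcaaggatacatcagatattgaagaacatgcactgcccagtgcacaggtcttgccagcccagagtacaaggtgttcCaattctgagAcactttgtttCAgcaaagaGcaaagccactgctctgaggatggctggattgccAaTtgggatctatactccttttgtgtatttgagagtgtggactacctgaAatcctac
The first 119 coding bases were identical in both genes, and 8 bases differed in the next stretch.

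How well the reads could be assigned was examined with windows of fixed length cut from the annotated transcripts and searched in all other annotated transcripts, on both strands. Of the 100-base windows, 50 of 1397 from Tcstv1 (3.6%) and 53 of 680 from Tcstv3 (7.8%) were found unchanged in another gene, which was the other Tcstv gene or Gm21818, a neighbour in the same cluster. For Zfp352 the count was 14 of 2177 windows (0.6%), all of them shared with the pseudogene Zfp353-ps. Of the 150-base windows, none of 2127 from Zfp352, 1350 from Tcstv1 and 630 from Tcstv3 was shared. The rest of the genome was not searched, and the aligner placed a read that fitted several places equally well at 1 of them at random, so small values of Tcstv1 and Tcstv3 may hold a few reads of each other or of Gm21818.

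The 250 bases upstream of the Zfp352 start (RefSeq, GRCm38.p6, plus strand, chr4:90218570-90218819) are shown because a 12-letter word recurs in them, in capitals below.
Zfp352 upstream: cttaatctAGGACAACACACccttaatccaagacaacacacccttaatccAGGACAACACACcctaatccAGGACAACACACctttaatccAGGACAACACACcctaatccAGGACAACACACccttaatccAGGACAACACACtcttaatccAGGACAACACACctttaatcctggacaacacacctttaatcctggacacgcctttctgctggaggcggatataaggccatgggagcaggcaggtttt
The word AGGACAACACAC occurred 7 times, from position -242 to position -97 relative to the start, with a median step of 21 bases between copies (20 to 42). It was taken from this sequence itself, as a 12-letter word repeated most often in it, so its match there was fixed in advance. Searched on both strands of all 32851 mouse promoter sequences of the same length, it occurred in 1, that of Zfp352 (0.00304%), and in no other. Any 12-letter word repeated at least 7 times was found in 37 promoters (0.113%). The letters TATAA, searched on the plus strand alone, occurred at position -28 of Zfp352, and 5.57% of all promoters held them within the last 60 upstream bases. These matches are descriptions of sequence only.

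The tables of the time course, the washout and the sorted experiment hold 1 value per gene and group, the authors' mean of normalized counts over 3 libraries. The spread between those libraries is not used here, so none of these differences carries an error or a test, and levels are compared within a table only. A gene counted as higher or lower when the ratio of the means, each with 1 added, was at least 2-fold and the larger mean was at least 5. Pou5f1, a defining gene of the labelled stem cells, was between 3247 and 20496 normalized counts in every group. The summed level of 8 stem cell markers in 2CLCs was 0.624 times that in mESCs in DMSO (7 of 8 lower) and 0.739 times in dTAG (6 of 8 lower). In dTAG it was 0.865 times the DMSO level in sorted mESCs (7 of 8 lower), and 0.882 to 0.994 times at 24 h, 7 d and 15 d. The summed level of 8 fibroblast markers, a list for feeder cells, was 1.25 times as high in dTAG as in DMSO at 24 h (4 of 8 markers higher), 1.47 times at 7 d (7 of 8) and 1.34 times at 15 d (7 of 8). It was 0.402 times the DMSO level after recovery (1 of 8 higher). In the GFP-positive cells it was 2.38 times the GFP-negative level in DMSO (6 of 8) and 2.27 times in dTAG (7 of 8). With dTAG it was 1.77 times the DMSO level in sorted mESCs (5 of 8) and 1.69 times in 2CLCs (6 of 8). Col1a1, Col1a2 and Thy1 made up much of the summed level. Col1a1 had 671 in DMSO and 1014 in dTAG at 7 d and 78.6 and 194 in sorted mESCs, and Col1a2 had 313 and 507, and 91.8 and 216. In DMSO Thy1 had 144 in GFP-negative and 561 in GFP-positive cells, where Col1a1 had 78.6 and 144. In dTAG Thy1 had 196 and 554. At 24 h Col3a1 was lower in dTAG (105 in DMSO, 58.1 in dTAG), as were Postn, Lum and Dcn. Lum stayed between 0.0 and 1.82 and Dcn between 0.55 and 20.5. The part of these cells in the results below was not tested. Ehmt2 RNA was 546 to 691 in the time course and washout and 64.6 to 116 in the sorted cells. The degrader acts on the protein, so these RNA values do not check the depletion.

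All 3 genes were low in DMSO and several-fold higher after 24 h of dTAG, and higher again after 7 d. For Zfp352 the authors' means were 1.32 normalized counts in DMSO and 22.6 in dTAG at 24 h, and 2.2 in DMSO and 93.9 in dTAG at 7 d. With 1 added to each mean these are ratios of 10.1-fold (log2 ratio 3.34) and 29.7-fold (log2 ratio 4.89). Tcstv1 had 1.66 in DMSO and 29.2 in dTAG at 24 h, and 7.21 in DMSO and 106 in dTAG at 7 d. Its ratio was 11.3-fold (log2 ratio 3.50) at 24 h and 13.0-fold (log2 ratio 3.70) at 7 d. Tcstv3 had 3.94 and 29.3 at 24 h, and 4.42 and 115 at 7 d. Its ratio was 6.13-fold (log2 ratio 2.62) at 24 h and 21.5-fold (log2 ratio 4.42) at 7 d. Thus at each time the 3 dTAG means lay close together, 22.6 to 29.3 at 24 h and 93.9 to 115 at 7 d, and the ratios differed mainly through the low DMSO means.

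**Figure D1:**
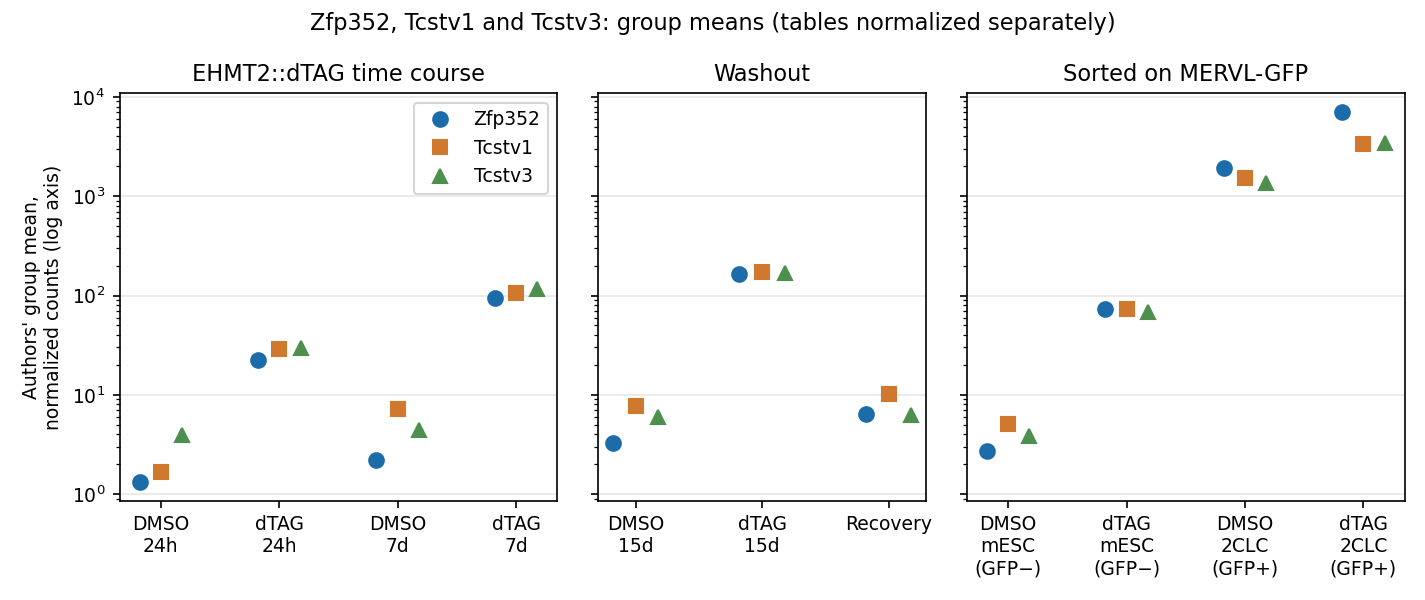
Authors' group means of Zfp352 (circles), Tcstv1 (squares) and Tcstv3 (triangles) in normalized counts on a log axis, 1 panel per separately normalized table, each point the mean of 3 libraries with no error bar. All 3 genes are at 10.1 or less in the DMSO mESC and recovery groups, between 22.6 and 171 in the dTAG mESC groups and above 1000 in both 2CLC groups.

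At 24 h all 3 genes were at least 2-fold higher, against 4.56% of the 20447 genes that passed the filter. Ordered from the highest log2 ratio, Tcstv1 was number 39, Zfp352 number 54 and Tcstv3 number 159. At 7 d all 3 were higher, against 6.51% of 20549 genes, and the order changed: Zfp352 was number 15, Tcstv3 number 73 and Tcstv1 number 204. Tcstv1 alone was also higher in DMSO at 7 d than in DMSO at 24 h, by 3.09-fold (log2 ratio 1.63), where 1.27% of 20105 genes were higher. It was number 22 there, and with 5 instead of 1 added to the means its log2 ratio was 0.88, below 2-fold. Zfp352 and Tcstv3 had DMSO means under 5 at both times and so did not enter that comparison. From 24 h to 7 d the DMSO mean of Tcstv1 went from 1.66 to 7.21 while its dTAG mean went from 29.2 to 106.

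The 2-cell programme list held 25 other genes, and most of them moved in the same direction as the 3. At 24 h 22 of the 25 passed the filter, 20 were at least 2-fold higher and none was lower, with a median log2 ratio of 3.22 against 0.01 over all genes tested. At 7 d all 25 passed, 24 were higher and none was lower, with a median log2 ratio of 4.20 against 0.01. Among them Zscan4c, a telomere-associated zinc finger gene of the 2-cell stage, had 103 in DMSO and 1912 in dTAG at 7 d (log2 ratio 4.20). Usp17lb went from 15.7 to 909 (log2 ratio 5.77). Duxf3 went from 7.06 to 32.7 (log2 ratio 2.07), less than any of the 3 genes. Dppa2, at 374 in DMSO and 795 in dTAG, had a log2 ratio of 1.09, and Dppa4, at 656 and 977, was the gene of the list that stayed under 2-fold (log2 ratio 0.57). The repeat family MERVL-int had a log2 ratio of 3.98 at 7 d, between those of Tcstv1 and Tcstv3.

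After 15 d of dTAG the 3 genes were far above their DMSO means, and after 8 d without dTAG they were back near the DMSO means. Zfp352 had 3.28 in DMSO, 165 in dTAG and 6.40 in the recovery group. Tcstv1 had 7.67, 171 and 10.1, and Tcstv3 had 5.92, 168 and 6.33. In dTAG the 3 means again lay within a narrow range, 165 to 171. The ratios of dTAG to DMSO were 38.7-fold for Zfp352 (log2 ratio 5.28, number 18), 19.8-fold for Tcstv1 (log2 ratio 4.31, number 194) and 24.5-fold for Tcstv3 (log2 ratio 4.62, number 115). All 3 were higher, where 6.72% of 19685 genes were. Between recovery and dTAG all 3 were at least 2-fold lower, where 8.11% of 19728 genes were lower. The log2 ratios were -4.49 for Zfp352, -3.94 for Tcstv1 and -4.53 for Tcstv3. Both comparisons share the dTAG 15 d mean.

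Against DMSO, none of the 3 was at least 2-fold higher after recovery, where 2.14% of 19108 genes were. The log2 ratios were 0.79 for Zfp352 (1.73-fold), 0.36 for Tcstv1 (1.29-fold) and 0.08 for Tcstv3 (1.06-fold). Of the 25 listed genes 19 passed the filter in that comparison, none was higher and none was lower, and their median log2 ratio was 0.55 against -0.01 over all genes. Zscan4c had 162 in DMSO and 246 after recovery (log2 ratio 0.60). MERVL-int, at 5617 in DMSO and 11016 after recovery, had a log2 ratio of 0.97. The summed fibroblast markers were lower after recovery than in either other group (1042 against 2595 in DMSO and 3480 in dTAG). With no error on these means, whether Zfp352 was above its DMSO level after recovery cannot be said.

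In the sorted cells the largest differences lay between GFP-positive and GFP-negative cells. In DMSO, Zfp352 had 2.72 normalized counts in GFP-negative mESCs and 1928 in 2CLCs, a ratio of 518-fold with 1 added to each mean (log2 ratio 9.02). Only 4 of the 20783 genes tested had a higher log2 ratio. Tcstv1 had 5.03 and 1538 (255-fold, log2 ratio 7.99, number 53) and Tcstv3 had 3.89 and 1349 (276-fold, log2 ratio 8.11, number 38). In this comparison 19.0% of all genes tested were at least 2-fold higher, as were 24 of the 25 listed genes, whose median log2 ratio was 7.30. The sort itself was made on a MERVL reporter, and MERVL-int had a log2 ratio of 7.90.

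In dTAG the GFP-negative means were 73.7 for Zfp352, 73.9 for Tcstv1 and 68.0 for Tcstv3, and the 2CLC means were 7042, 3361 and 3469. The 2CLC means were 94.3-fold (log2 ratio 6.56), 44.9-fold (log2 ratio 5.49) and 50.3-fold (log2 ratio 5.65) higher, and all 3 genes passed, where 17.4% of 20789 genes did. Set against the 2CLC mean of the same treatment, the GFP-negative mean of Zfp352 went from 0.141% in DMSO to 1.05% in dTAG. For Tcstv1 this share went from 0.327% to 2.2%, for Tcstv3 from 0.289% to 1.96%, for Zscan4c from 0.574% to 3.67% and for MERVL-int from 0.419% to 2.42%. These shares hold whatever GFP-positive cells escaped the gate as well as RNA of GFP-negative cells, and the 2 cannot be told apart here.

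The dTAG means were above the DMSO means on both sides of the gate. In GFP-negative mESCs dTAG was higher than DMSO by 20.1-fold for Zfp352 (log2 ratio 4.33, number 24), 12.4-fold for Tcstv1 (log2 ratio 3.64, number 105) and 14.1-fold for Tcstv3 (log2 ratio 3.82, number 75). All 3 were higher, where 7.41% of 19472 genes were. In 2CLCs dTAG was higher by 3.65-fold for Zfp352 (log2 ratio 1.87, number 266), 2.19-fold for Tcstv1 (log2 ratio 1.13, number 1154) and 2.57-fold for Tcstv3 (log2 ratio 1.36, number 761). All 3 were at least 2-fold higher, where 6.73% of 20934 genes were. Of the 25 listed genes 23 were higher in mESCs (median log2 ratio 3.18) and 11 in 2CLCs (median 0.97). Zscan4c had 44464 in DMSO and 52636 in dTAG in 2CLCs (log2 ratio 0.24), whereas Duxf3 had 512 and 270 (log2 ratio -0.92). Whether the dTAG effect differed between mESCs and 2CLCs was not tested.

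The 2CLC values depend on the scaling of the table. When the group means were instead scaled to the same sum over genes, the median log2 ratio of all genes moved to -0.24 for dTAG against DMSO in 2CLCs. The 2CLC ratio of Tcstv1 then came to 1.85-fold (log2 ratio 0.89), below 2-fold, that of Tcstv3 to 2.17-fold (log2 ratio 1.12) and that of Zfp352 to 3.09-fold (log2 ratio 1.63). The genes called higher and lower there changed from 1409 and 984 to 987 and 1579. Between 2CLCs and mESCs they changed from 3945 and 1997 to 3575 and 2624 in DMSO (median -0.14) and from 3617 and 1776 to 2756 and 3887 in dTAG (median -0.43). The 3 genes stayed more than 2-fold higher in 2CLCs than in mESCs under both scalings.

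**Figure D2:**
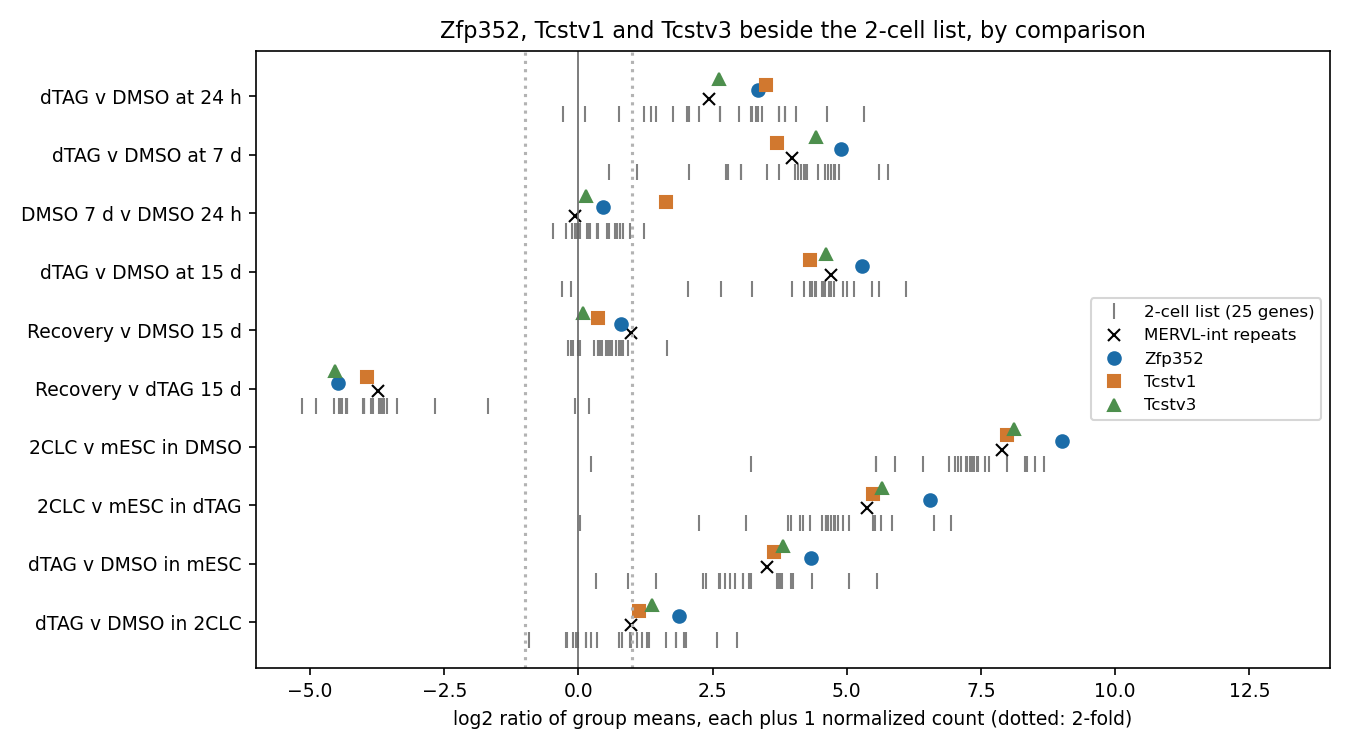
Log2 ratio of the authors' group means, with 1 added to each, for Zfp352 (circles), Tcstv1 (squares), Tcstv3 (triangles), MERVL-int (crosses) and each of the 25 listed 2-cell genes (ticks), 1 row per comparison, with dotted lines at 2-fold. The 3 genes are at 2.62 or above in every dTAG comparison of mESCs, at 0.79 or below for recovery against DMSO, and between 1.13 and 1.87 for dTAG against DMSO in 2CLCs.

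Levels of the 3 genes were compared with each other per kilobase of spliced transcript, 2276 bases for Zfp352, 875 for Tcstv1 and 779 for Tcstv3. In dTAG at 7 d the order was Tcstv3 at 148 normalized counts per kilobase, Tcstv1 at 121 and Zfp352 at 41.3. At 15 d of dTAG it was the same, at 216, 195 and 72.5. In DMSO 2CLCs Tcstv1 at 1758 and Tcstv3 at 1732 per kilobase were close, and Zfp352 was at 847. In dTAG 2CLCs the order was Tcstv3 at 4453, Tcstv1 at 3841 and Zfp352 at 3094. With no error on the means, neighbours in these orders cannot be separated. By the study's methods the aligner was set to place no read across an intron. Reads over the exon junction may therefore be missing, by a share that was not measured. The place of Tcstv1 depends on the length used: over all its annotated exonic bases (1398), which include unspliced sequence, it had 2404 per kilobase in dTAG 2CLCs, below Zfp352.

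Around Zfp352 the 5 annotated genes within 500 kb were silent or nearly so. None passed the filter at 24 h, 7 d or 15 d, and 1, the pseudogene Gm12633, passed in the sorted cells, with 13.9 normalized counts in DMSO 2CLCs and 43.9 in dTAG 2CLCs. The interval around Tcstv1 and Tcstv3 was different and held 41 other genes within 500 kb. At 7 d 28 of these passed the filter, 10 were at least 2-fold higher and none was lower, against 6.51% higher among all genes. At 24 h 9 of 26 were higher and none lower, against 4.56% higher among all genes. At 15 d 10 of 23 were higher and 1 lower, against 6.72% higher among all genes. After recovery 10 of 24 were lower than in dTAG at 15 d and 2 higher, against 8.11% lower among all genes. Between 2CLCs and mESCs in DMSO 18 of 32 were higher and 3 lower, against 19.0% higher among all genes.

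The 10 neighbours that were higher at 7 d were AF067063, D13Ertd608e, Gm21761, B020031M17Rik, Gm20767, Gm21818, Gm21762, Gm21731, AF067061 and BC147527, with log2 ratios from 3.49 to 5.50. Of these, Gm21761 and Gm20767 are also in the list of 25. Gm21761 had 12.4 in DMSO and 348 in dTAG at 7 d, and AF067061 had 3.23 and 133. Between 2CLCs and mESCs in DMSO the log2 ratios of the same 10 genes ran from 7.07 to 9.07, around those of Tcstv1 and Tcstv3. These 10 were also the protein-coding neighbours that resemble the Tcstv genes in sequence, a grouping made after their values were seen. Their transcripts held 12.0% to 67.5% of the distinct 12-letter words of the Tcstv1 coding sequence and 19.2% to 67.5% of those of Tcstv3. The other 11 protein-coding neighbours, with Nnt counted under 2 overlapping gene IDs, held at most 0.2%. Of these others 9 passed the filter at 7 d and none was 2-fold higher, with log2 ratios from -0.86 to 0.52. Hmgcs1, an enzyme of cholesterol synthesis, had 5924 in DMSO and 5718 in dTAG, and the zinc finger gene Zfp131 had 678 and 974. The words searched are far shorter than a read and do not measure shared reads. The counts of shared 100-base windows given above were made for Zfp352, Tcstv1 and Tcstv3 alone. Windows shared among the 10 neighbours themselves were not counted.

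**Figure D3:**
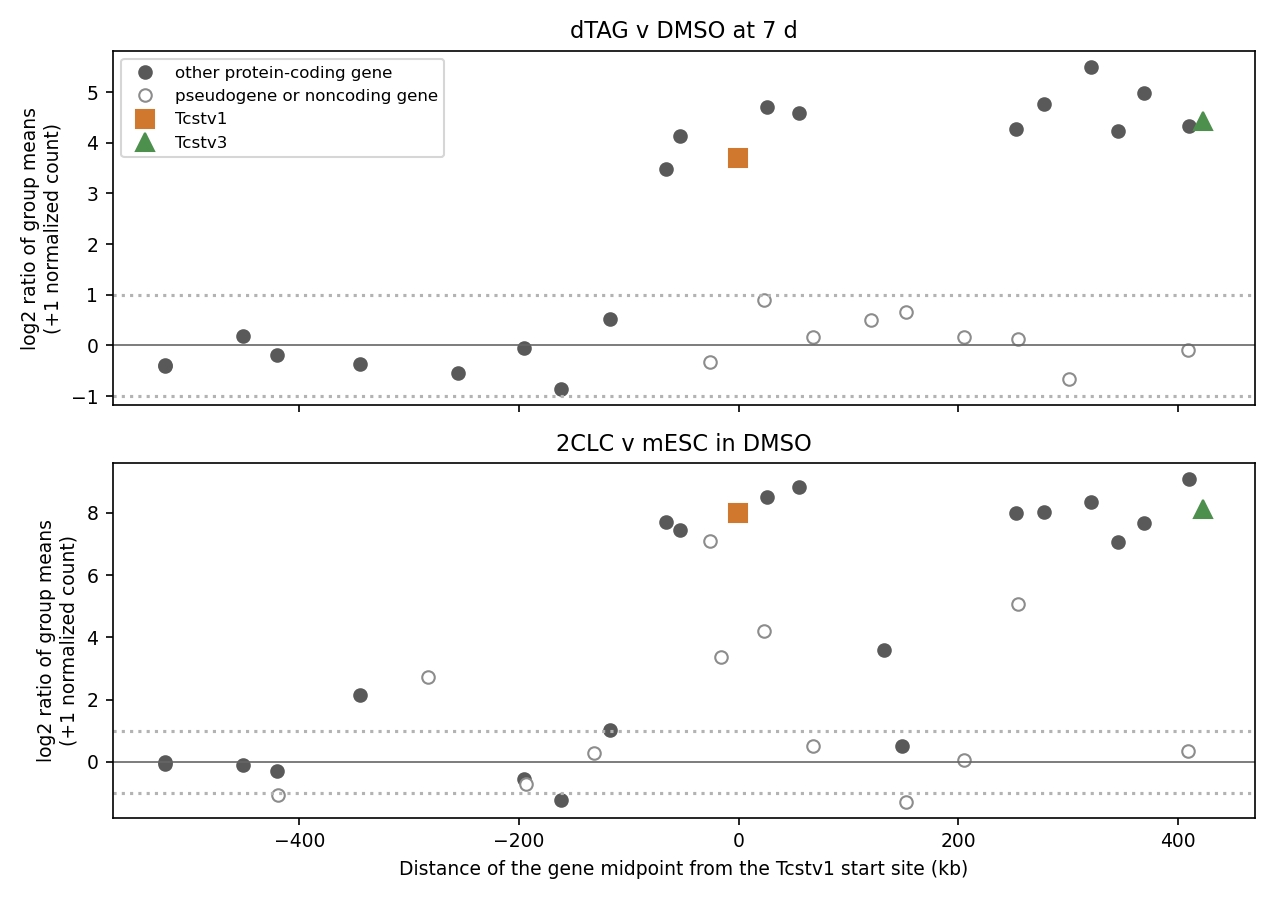
Log2 ratio of the authors' group means, with 1 added to each, for dTAG against DMSO at 7 d (top) and 2CLCs against mESCs in DMSO (bottom), against the distance in kb of a gene's midpoint from the Tcstv1 start, for genes within 500 kb that passed the filter (filled circles protein-coding, open circles pseudogene or noncoding, dotted lines 2-fold). At 7 d 10 protein-coding neighbours lie between 3.49 and 5.50, near Tcstv1 (square, 3.70) and Tcstv3 (triangle, 4.42), and the 9 others lie between -0.86 and 0.52.

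The genes whose pattern was most like each of the 3 were ranked by Pearson's r over the 11 group means on the log2 scale, centred within each table, among 17995 genes. For Zfp352 these were Gm9121 (r = 0.9991), Gm50331, Gm48799, Gm2035 and Gm2022 (r = 0.9981), with Tcstv3 next as number 6 (r = 0.998) and Tcstv1 number 57 (r = 0.9941). For Tcstv3 they were B020031M17Rik (r = 0.9987), Gm48799, Gm16368, Gm2022 and Gm6189 (r = 0.998). For Tcstv1 they were Gm20767 (r = 0.9972), Gm428, Gm21761, Gm47739 and Gm48754 (r = 0.9961). B020031M17Rik, Gm20767 and Gm21761 are neighbours in the chromosome 13 cluster. The points share libraries and the contrast of 2CLCs with mESCs dominates them, so 57 to 136 genes reached an r of 0.99 with each member. By Spearman's rho none of the 5 top genes was the same for any of the 3.

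In the J1 experiment the tables hold a value for every library, and dividing out the size factors gave whole reads (within 0.001) for 100% of the values. Gene reads per library ranged from 8399885 to 12710949. Dppa4, the targeted gene, had 602, 706 and 1053 reads in WT DMSO, 825, 829 and 967 in WT UNC0638 and 0 in all 6 DPPA4KO libraries, as labelled. The WT replicate 3 libraries stood apart from the others of their groups. Reads of 23 genes of the 2-cell list (without Dppa2 and Dppa4) per 1000000 gene reads were 22.65, 74.17 and 316.66 in WT DMSO replicates 1, 2 and 3, and 185.82, 240.86 and 1284.13 in WT UNC0638. Replicate 3 thus held 82.9% and 78.3% of those reads, with 42.2% and 37.5% of all gene reads. MERVL-int was highest of its group in the same libraries, at 12607 normalized counts against 2199 and 4355 in WT DMSO and 53609 against 14593 and 12274 in WT UNC0638. The labels give no litter, day or passage that sets these libraries apart.

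Zfp352 was read in WT cells and in no DPPA4KO library. Its reads were 0, 0 and 7 in WT DMSO replicates 1, 2 and 3, 19, 13 and 60 in WT UNC0638, and 0 in each of the 6 DPPA4KO libraries. In normalized counts these are 2.04 ± 3.53 (SD, n = 3) in WT DMSO and 25.6 ± 19.5 (SD, n = 3) in WT UNC0638. All 3 WT UNC0638 libraries were above all 3 WT DMSO libraries and above every DPPA4KO library. In the DPPA4KO libraries a count of 0 allows up to 0.236 to 0.339 reads per 1000000 gene reads, counting 3 reads per library. Low Zfp352 transcription in DPPA4KO cells was therefore not detectable at this depth. Replicate 3 held all 7 reads of WT DMSO and 65.2% of those of WT UNC0638.

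**Figure D4:**
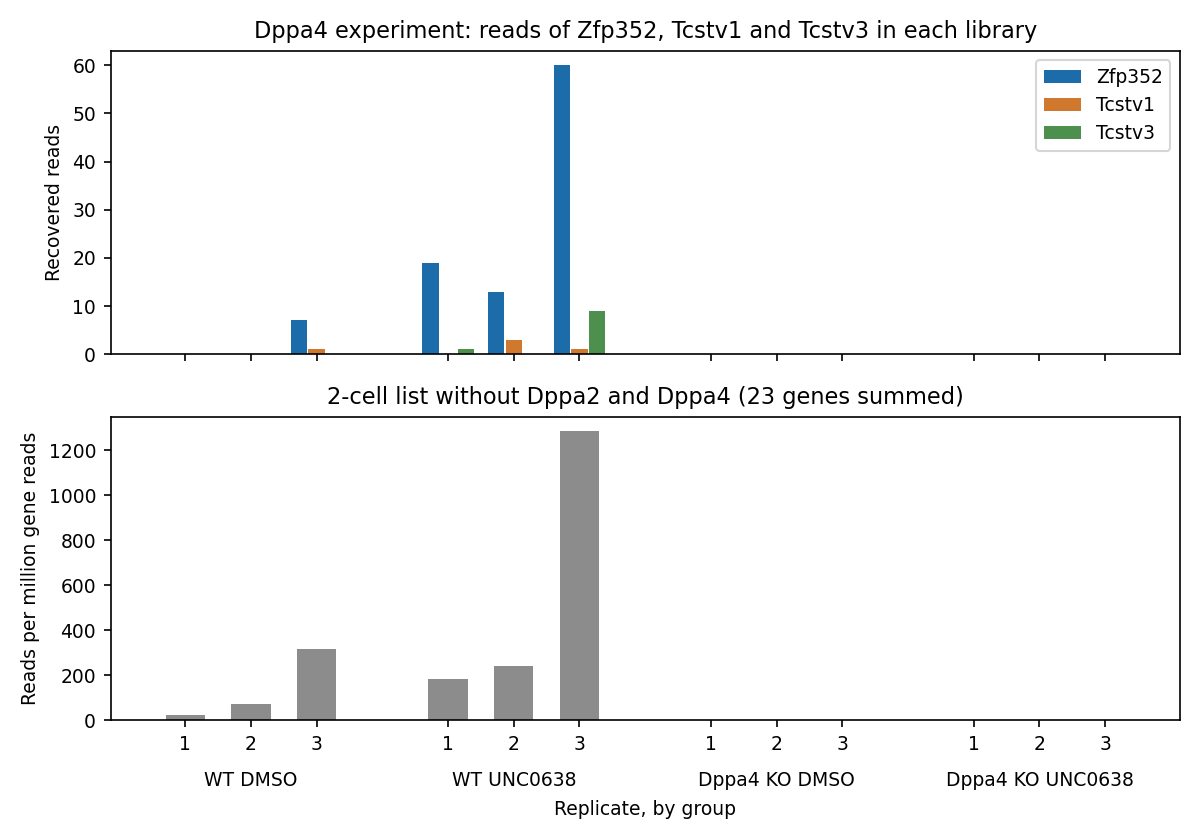
Top, recovered reads of Zfp352, Tcstv1 and Tcstv3 in each of the 12 J1 libraries, 1 bar per gene and library; bottom, summed reads of 23 listed 2-cell genes per 1000000 gene reads in the same libraries. Zfp352 is at 13 to 60 reads in WT UNC0638, at 0, 0 and 7 in WT DMSO and at 0 in all 6 DPPA4KO libraries, neither Tcstv gene exceeds 9 reads, and replicate 3 is highest for the summed list in both WT groups.

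The comparison of WT UNC0638 with WT DMSO asked whether the inhibitor raised these genes. Summed over libraries, Zfp352 had 92 against 7 reads, a depth-adjusted ratio of 10.7 with an exact 95% interval of 4.99 to 27.4, which covers counting error only. The 2-sided exact permutation test over the 3 and 3 libraries gave p = 0.1, the smallest this design allows. In limma over all 17258 genes kept, the log2 fold change was 3.55 (SE 1.12, n = 3 per group) with an adjusted p of 0.563, and over the alternatives the adjusted p ranged from 0.194 to 0.961. The difference therefore did not pass the test. By limma no gene was called higher in that contrast (0.0% of genes tested) or lower, although 1504 genes had an unadjusted p under 0.05. On the recovered reads edgeR called 0 genes and DESeq2 13. The 18 listed genes tested, Dppa4 left out, had a median log2 fold change of 2.07 with 17 above 0 and none called.

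The comparison of DPPA4KO with WT asked what these genes do without DPPA4. In UNC0638 Zfp352 was 28.0-fold lower in DPPA4KO when 0 is read as 3 reads over the group. This figure leaves out the counting error of the 92 WT reads of Zfp352. Its limma log2 fold change was -4.49 (SE 1.12) with an adjusted p of 0.0311, past the threshold, where 2.31% of genes were called lower. The exact permutation p for the same libraries was 0.1, the smallest possible. This call did not hold under every setting. Adjusted p-values ranged from 0.00809 to 0.182, and the call was lost without WT UNC0638 replicate 1 (0.0638), replicate 2 (0.0795) or replicate 3 (0.149), without DPPA4KO UNC0638 replicate 3 (0.0501), with both WT replicate 3 libraries left out (0.138), with a pseudocount of 0.5 (0.057) and with DESeq2 (0.182). Of the 18 listed genes 16 were called lower, with a median log2 fold change of -7.52. Marker sums moved with genotype too. In UNC0638 the fibroblast list was at 0.698 times the WT level in DPPA4KO (7 of 8 lower, none higher), with sums of 1219 to 1754 against 1871 to 2438 normalized counts per library. The stem cell list was at 1.25 times (8 of 8 higher), with 59520 to 61637 against 45252 to 51649. In DMSO the ratios were 0.585 (8 of 8 lower) and 1.23 (7 of 8 higher). Their part in the genotype difference was not tested.

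In DMSO Zfp352 had 7 reads in WT and 0 in DPPA4KO, with all 7 reads in 1 library. Reading 0 as 3 reads, Zfp352 was 2.37-fold lower, without the counting error of the 7 reads. Its log2 fold change was -0.94 with an adjusted p of 0.652 in limma, whereas 3.1% of all genes and 11 of the 18 listed genes were called lower. In DPPA4KO cells UNC0638 left Zfp352 at 0, while 0.411% of genes were called higher there and none of the 18 listed genes was called by limma. The difference of the UNC0638 effects between the genotypes was -3.55 on the log2 scale (SE 1.58, adjusted p = 0.775 in limma). With 0 reads in every DPPA4KO library, this is the WT effect of 3.55 with its sign reversed. Both DPPA4KO groups lay at the floor, so the test cannot decide whether the response of Zfp352 differed between genotypes. No gene passed the test of this difference in limma (1076 had an unadjusted p under 0.05), and none did in edgeR or DESeq2. Over the 6 DPPA4KO libraries 19 of the 23 listed genes were also at 0, and the others had 57 reads in all.

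The Tcstv genes were barely read in J1 cells. Tcstv1 had 0, 0 and 1 reads in WT DMSO and 0, 3 and 1 in WT UNC0638, and Tcstv3 had 0, 0 and 0 and then 1, 0 and 9. Both were at 0 in all 6 DPPA4KO libraries. Tcstv1 in WT UNC0638 against WT DMSO had a ratio of 3.26 with an interval of 0.322 to 160 (exact permutation p = 0.7). With 0 read as 3 reads, Tcstv3 in WT UNC0638 was 2.71-fold higher than in WT DMSO and 3.05-fold higher than in DPPA4KO UNC0638. The exact permutation p was 0.4 for each, and these ratios leave out the counting error of the WT UNC0638 reads. Neither passed limma's filter on low counts. Without that filter neither was called in any contrast, and the smallest unadjusted limma p was 0.0312, for Tcstv3 both between DPPA4KO and WT in UNC0638 (adjusted p = 0.25) and between UNC0638 and DMSO in WT (adjusted p = 0.57).

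The proportion of Tcstv to Zfp352 differed between the J1 cells and the degron cells. This ratio is taken within a group and does not depend on the scaling of a table. Over the 6 degron groups with dTAG or a 2CLC sort, Tcstv1 was at 0.477 to 1.29 times the Zfp352 mean and Tcstv3 at 0.493 to 1.3 times. In WT UNC0638 it was 0.0435 for Tcstv1 (4 against 92 reads, exact 95% interval 0.0116 to 0.115) and 0.109 for Tcstv3 (10 against 92 reads, interval 0.0504 to 0.209). Both intervals lie below all 6 degron values, and they cover counting error alone. Replicate 3 held 60 of the 92 Zfp352 reads and 9 of the 10 Tcstv3 reads. Without it the ratio was 0.0938 for Tcstv1 (3 against 32 reads, interval 0.0184 to 0.3) and 0.0312 for Tcstv3 (1 against 32 reads, interval 0.000768 to 0.187), and both intervals still lay below the degron values.

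By this ratio to Zfp352 the 10 related genes of the chromosome 13 cluster did not all behave alike. For 5 of them, B020031M17Rik, Gm20767, Gm21818, Gm21762 and Gm21731, the interval in WT UNC0638 also lay below all 6 degron values, for 1, Gm21761, it lay above, and for 4 it overlapped them. B020031M17Rik was at 0.907 to 2.04 times Zfp352 in the degron groups and Gm21818 at 0.956 to 1.77 times, and both had 0 reads in WT UNC0638, which allows at most 0.0409 times. Gm20767 was at 1.65 to 3.56 times in the degron groups and at 0.88 times (81 reads, interval 0.645 to 1.2) in WT UNC0638. Gm21762 was at 0.208 to 0.654 and then at 0.0761 times with 7 reads, and Gm21731 at 0.0956 to 0.189 and then at 0.0109 times with 1 read. Gm21761 was at 2.03 to 3.7 times in the degron groups and at 8.99 times (827 reads, interval 7.24 to 11.3) in WT UNC0638. D13Ertd608e had 0.25 times (interval 0.151 to 0.398) against 0.35 to 0.801, and the other 3 with overlapping intervals were AF067063, AF067061 and BC147527. Without replicate 3, 4 of the 10 lay below, 1 above and 5 overlapped: D13Ertd608e then lay below, and Gm21762 and Gm21731 overlapped. Windows shared among the 10 genes were not counted, so their separate values may hold reads of each other. The cells differ in line, and the labels give BL6/129 for the degron lines and no strain for the J1 cells. They also differ in agent, and the time course and washout in read length, while the sorted libraries had the same read length as the J1 libraries. By the study's methods, library preparation also differed: stranded mRNA libraries in the time course and washout, low-input libraries in the sorted cells and polyA libraries in the J1 cells. The part of line, strain, agent and library preparation cannot be told apart here.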

How the data were processed

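RNA-seq was made from 45 mESC libraries. Per the labels and the study's methods, the authors trimmed reads with Trim Galore 0.6.7, aligned them to mm10 with STAR 2.7.10 (a multi-mapping read kept at 1 random place), counted genes and repeats with TEcounts on GENCODE vM25 and divided by size factors of DESeq2 1.34.0. The deposited values are therefore normalized counts (a signal scale, without transcript length). The time course, washout and sorted tables hold the authors' group means, normalized separately, and the J1 tables hold a value per library. Other deposited files hold the authors' fold changes, p-values and gene classes and were not used.

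Group means were compared as log2 ratios with a pseudocount of 1, called at 2-fold or more where the larger mean was at least 5. In the J1 experiment limma 3.58.1 (R 4.3.3), with a trend over log2(normalized count + 1), was fitted to all 12 libraries and 17258 genes kept by filterByExpr of edgeR 4.0.16. A call needed a Benjamini-Hochberg adjusted p under 0.05 and an absolute log2 fold change of at least 1, and fold changes on this scale understate low genes. Recovered reads went into edgeR and DESeq2 1.42.0 as alternatives. The fit was tested on simulated data. The labels of the J1 libraries number replicates only, the study's methods call them clonal lines, and p-values measure the spread between these libraries only. Same-numbered WT libraries deviated together weakly (r = 0.246, 0.103 and 0.431, against -0.3 to 0.045 for WT pairs of different number). The largest r was that of the outlying replicate 3, so the numbers may pair the WT libraries, but this was not established. In DPPA4KO cells same-numbered pairs (r = 0.154, -0.092 and 0.013) overlapped with the others (-0.128 to 0.119). No block was used in the reported fit. Positions came from GENCODE vM21, which held 98.1% of the gene IDs.

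The 3 genes, the 2-cell list, the marker lists and the named genes (the 3 genes, the 5 most like each, changed neighbours within 500 kb and the listed genes) were chosen with earlier results of these data known. Hmgcs1, Zfp131, Gm12633 and the ratios to Zfp352, with and without replicate 3, were picked after values were seen.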

Additional observations from a re-analysis of the deposited data

How the results depend on the processing

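Of 150 log2 ratios of the 3 genes under alternative settings, 148 kept their side of 2-fold, 2 did not and none changed sign. Both exceptions were values of Tcstv1 given in the report. The settings with a larger mean of at least 1 or 20 change the filter alone, so their ratios could not move and show nothing about stability. With at least 20, Tcstv1 no longer entered the comparison of DMSO at 7 d with 24 h. The counts of genes called over the whole tables moved more. With a larger mean of at least 1 they were 2775 at 24 h, 3884 at 7 d, 1585 for DMSO at 7 d against 24 h, 2799 at 15 d, 1512 for recovery against DMSO, 3278 for recovery against dTAG, 9130 for 2CLCs against mESCs in DMSO, 8480 in dTAG, 4100 for dTAG in mESCs and 5195 in 2CLCs. With at least 20 they were, in the same order, 727, 1322, 270, 826, 357, 1115, 3856, 3392, 973 and 1105. With a pseudocount of 5 they were 807 at 24 h, 1536 at 7 d, 222 for the DMSO groups, 325 for recovery against DMSO, 1289 for recovery against dTAG, 1243 for dTAG in mESCs and 1232 in 2CLCs. Reported counts were 1510, 2416, 696, 1540, 700, 1951, 5942, 5393, 2070 and 2393.

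In the J1 experiment, counts of calls without 1 library ranged from 0 to 1 for UNC0638 in WT, 2 to 365 in DPPA4KO (80 reported), 286 to 904 for DPPA4KO against WT in DMSO (765 reported), 190 to 512 in UNC0638 (567 reported) and 0 to 1 for the difference. For Zfp352 the log2 fold changes without 1 library ranged from 2.99 to 4.49 for UNC0638 in WT, -1.42 to 0.0 for DPPA4KO against WT in DMSO, -4.88 to -3.93 in UNC0638 and -4.49 to -2.99 for the difference, and stayed at 0.0 in DPPA4KO. Without both WT replicate 3 libraries, an alternative chosen after seeing the data, the counts were 1 for UNC0638 in WT, 314 for DPPA4KO against WT in DMSO, 186 in UNC0638 and 1 for the difference. DESeq2 gave 13 for UNC0638 in WT, 245 in DPPA4KO and 854 for DPPA4KO against WT in UNC0638. In DPPA4KO edgeR gave 51 and the fit without a filter 12. With the replicate number as a block within each genotype, the counts were 0 for UNC0638 in WT, 155 in DPPA4KO and 0 for the difference. For DPPA4KO against WT the block joined same-numbered libraries of both genotypes, a pairing that the labels do not give. The counts were then 1021 in DMSO and 753 in UNC0638. Neither block changed a call of Zfp352, whose limma adjusted p for DPPA4KO against WT in UNC0638 was then 0.0238. The causes were not tested. Alternatives that need a value per library were not run on the group means. The limits are the 3 libraries per group, the missing spread of the group means and the few reads of the Tcstv genes in J1 cells.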
